A study of Mus musculus with 4 samples.

Results

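Collagen is folded, modified and exported by a dedicated set of gene products, and 41 such genes were followed here among the 55141 genes of the expression table. They were chosen by gene symbol: 12 genes for proline and lysine hydroxylation, 4 for collagen chaperones and calcium of the endoplasmic reticulum (ER), 5 for secretion and its transcription factors, 9 for extracellular processing and crosslinking, 7 general ER chaperones and disulfide isomerases, and 4 transcription factors of the unfolded protein response. RNA came from articular chondrocytes of femoral heads of C57BL/6 mice at 3 weeks of age, released with collagenase and cultured in medium with serum, and was sequenced in 4 libraries, 1 for each condition. The conditions were wild type (WT), Cart-miR-23clus KO (floxed miR-23a/b clusters, flox/flox, with Col2a1-cre), miR-26a KO (miR-26a -/-), and miR-26a KO with the mimic of miR-26a introduced by lipid transfection, the last labelled as C57BL6/J. In Cart-miR-23clus KO the recombinase is driven by the Col2a1 promoter, so the deletion applies to cells that expressed Col2a1, while miR-26a -/- is a deletion in all cells. The WT library is labelled wild type, whereas the study's methods name its reference mice Control, so its floxed status is uncertain. A control transfection of the miR-26a KO library without mimic is not stated, so miR-26a and the transfection cannot be told apart in that comparison.

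Procollagen chains enter the ER, where prolines and lysines are hydroxylated before the triple helix closes, and the chaperone Hsp47 binds the finished helix. Large COPII vesicles carry the molecule onward, and outside the cell its propeptides are removed and lysyl oxidases start the crosslinks that give cartilage and bone their tensile strength. When unfolded proteins build up in the ER, the transcription factors ATF6, XBP1 and ATF4 raise the general chaperones. Chondrocytes and osteoblasts, which secrete much collagen, rely on all of these steps.

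The miR-23a and miR-23b clusters encode miR-23, miR-27 and miR-24. Their mature sequences and that of miR-26a are shown because seed matches in the members are described below. They are from RefSeq (GRCm38.p6), 5′ to 3′, with the seed (bases 2 to 8) in capitals.
mmu-miR-23a-3p: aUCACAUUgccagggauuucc
mmu-miR-27a-3p: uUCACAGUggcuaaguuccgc
mmu-miR-27b-3p: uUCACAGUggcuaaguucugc
mmu-miR-24-3p: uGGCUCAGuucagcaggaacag
mmu-miR-26a-5p: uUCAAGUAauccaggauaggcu
miR-27a and miR-27b share their seed, and the sense strand of the transfected mimic is identical to mmu-miR-26a-5p. mmu-miR-23b-3p belongs to the same clusters. The libraries hold polyadenylated RNA, and the 5 deleted miRNA genes that have a row were at 0 in all 4 libraries, WT included, so these reads do not check the deletions.

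The 4 libraries held 1336496 to 1505805 reads on genes. Levels are TPM, reads scaled by gene length and library, and a difference between libraries is a TPM ratio with its exact 95% interval, which covers counting error only. With 1 library per condition there is no replicate error and no test: each ratio compares these libraries, not the conditions. Marker genes of several cell types differed between libraries. Summed TPM of 13 chondrocyte markers ran from 12100 to 17800 and of 13 osteoblast markers from 3930 in Cart-miR-23clus KO to 13200 in WT. Macrophage markers ran from 403 to 1350, adipocyte markers from 196 to 910, and smooth muscle markers from 158 to 342. Fibroblast and synovial markers summed to 1740 to 2820. Endothelial markers stayed at or below 0.406, and 4 erythroid markers were at 0. The 10 proliferation genes summed to 160 TPM in WT and to 285 to 303 in the other libraries. In Cart-miR-23clus KO against WT, 8 of 10 compared osteoblast markers were below 0.5, among them Tmem119 at 0.0396, and Spp1 was highest at 2.09. Ifitm5 had 0 reads in Cart-miR-23clus KO against 34 in WT, a ratio of at most 0.0971 with 3 reads as the floor, so which marker was lowest is not settled. In the same comparison, the lowest and highest ratios were Matn1 at 0.402 and Comp at 1.7 among chondrocyte markers, Dpt at 0.335 and Prg4 at 2.16 among fibroblast and synovial markers, and Lyz2 at 0.979 and Adgre1 at 1.98 among macrophage markers. They were Lpl at 2.02 and Car3 at 4.96 among adipocyte markers, Acta2 at 2.04 and Tagln at 13.6 (3 reads in WT) among smooth muscle markers, and Ccna2 at 0.766 and Ccnb1 at 3.62 among proliferation genes. In miR-26a KO against WT, 8 of 10 macrophage markers were below 0.5, 3 of 10 osteoblast markers were below 0.5, and 3 of 8 fibroblast and synovial markers were above 2 (Mfap5 at 4.12, Thy1 at 3.66 and Prg4 at 3.36). In Cart-miR-23clus KO against miR-26a KO, 10 of 10 macrophage and 4 of 4 adipocyte markers were above 2 and 6 of 9 osteoblast markers were below 0.5. With the mimic against miR-26a KO, all 9 compared macrophage and all 9 compared osteoblast markers were higher. Fewer cells of a type and less RNA per cell cannot be told apart in such bulk samples, and the part of these markers in the results on the members was not tested.

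The highest library was less than 1.5 times the lowest for 24 of the 41 genes, beside 44.6% of 11049 genes, most of which have fewer reads, and 3 genes, Lox, Creb3l1 and Bmp1, passed 2-fold in any of the 4 comparisons made. Of the 41 genes, 20 were lowest in Cart-miR-23clus KO, beside 30.1% of 11049 genes, and 8 were lowest in WT, beside 28.3%. WT was the highest for 14 members (26.4% of genes), the mimic library for 14 (23.1%), Cart-miR-23clus KO for 10 (26.1%) and miR-26a KO for 3 (24.4%). Tmem38b, an ER cation channel that accompanies calcium release, was the 1 member with too few reads to compare (4 in WT, 9 in Cart-miR-23clus KO, 5 reads in miR-26a KO and 6 with the mimic, against a minimum of 20 in both libraries together).

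In Cart-miR-23clus KO against WT, 1 of 40 compared members was above 2-fold, where 4.73% of all 9573 genes were, and 2 were below 0.5, where 4.38% of genes were. Of them, 16 members were higher and 24 lower, beside 48.5% higher and 51.5% lower among all genes, with a median log2 ratio of -0.11 beside -0.02. The interval lay above 1 for 10 members and below 1 for 14, against 11.8% and 12.3% of all genes. Members hold more reads than the typical gene, a median of 366 per library against 36.8 over 11049 genes, so their intervals are narrower and these 2 shares are not like for like. Against miR-26a KO, 0 members were above 2-fold and 2 were below 0.5 (3.99% and 3.43% of all 9453 genes), 5 intervals lay above 1 and 14 below (8.26% and 10.7%), and the median was -0.09 beside -0.05 over all genes. The 2 members below 0.5 became 0 with CPM, TMM factors or DESeq2 size factors. Both comparisons use the same Cart-miR-23clus KO library. In miR-26a KO against WT, 1 member was above 2-fold and 0 were below 0.5 (3.88% and 3.5% of all 9545 genes), 9 intervals lay above 1 and 7 below (11.1% and 8.59%), and the median was -0.03 beside 0.02 over all genes. With the mimic against miR-26a KO, 0 members passed 2-fold in either direction (1.89% above and 1.46% below among 9471 genes), 4 intervals lay above 1 and 5 below (5.07% and 5.05%), and the median was 0.02 beside -0.004 over all genes. 

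**Figure D1:**
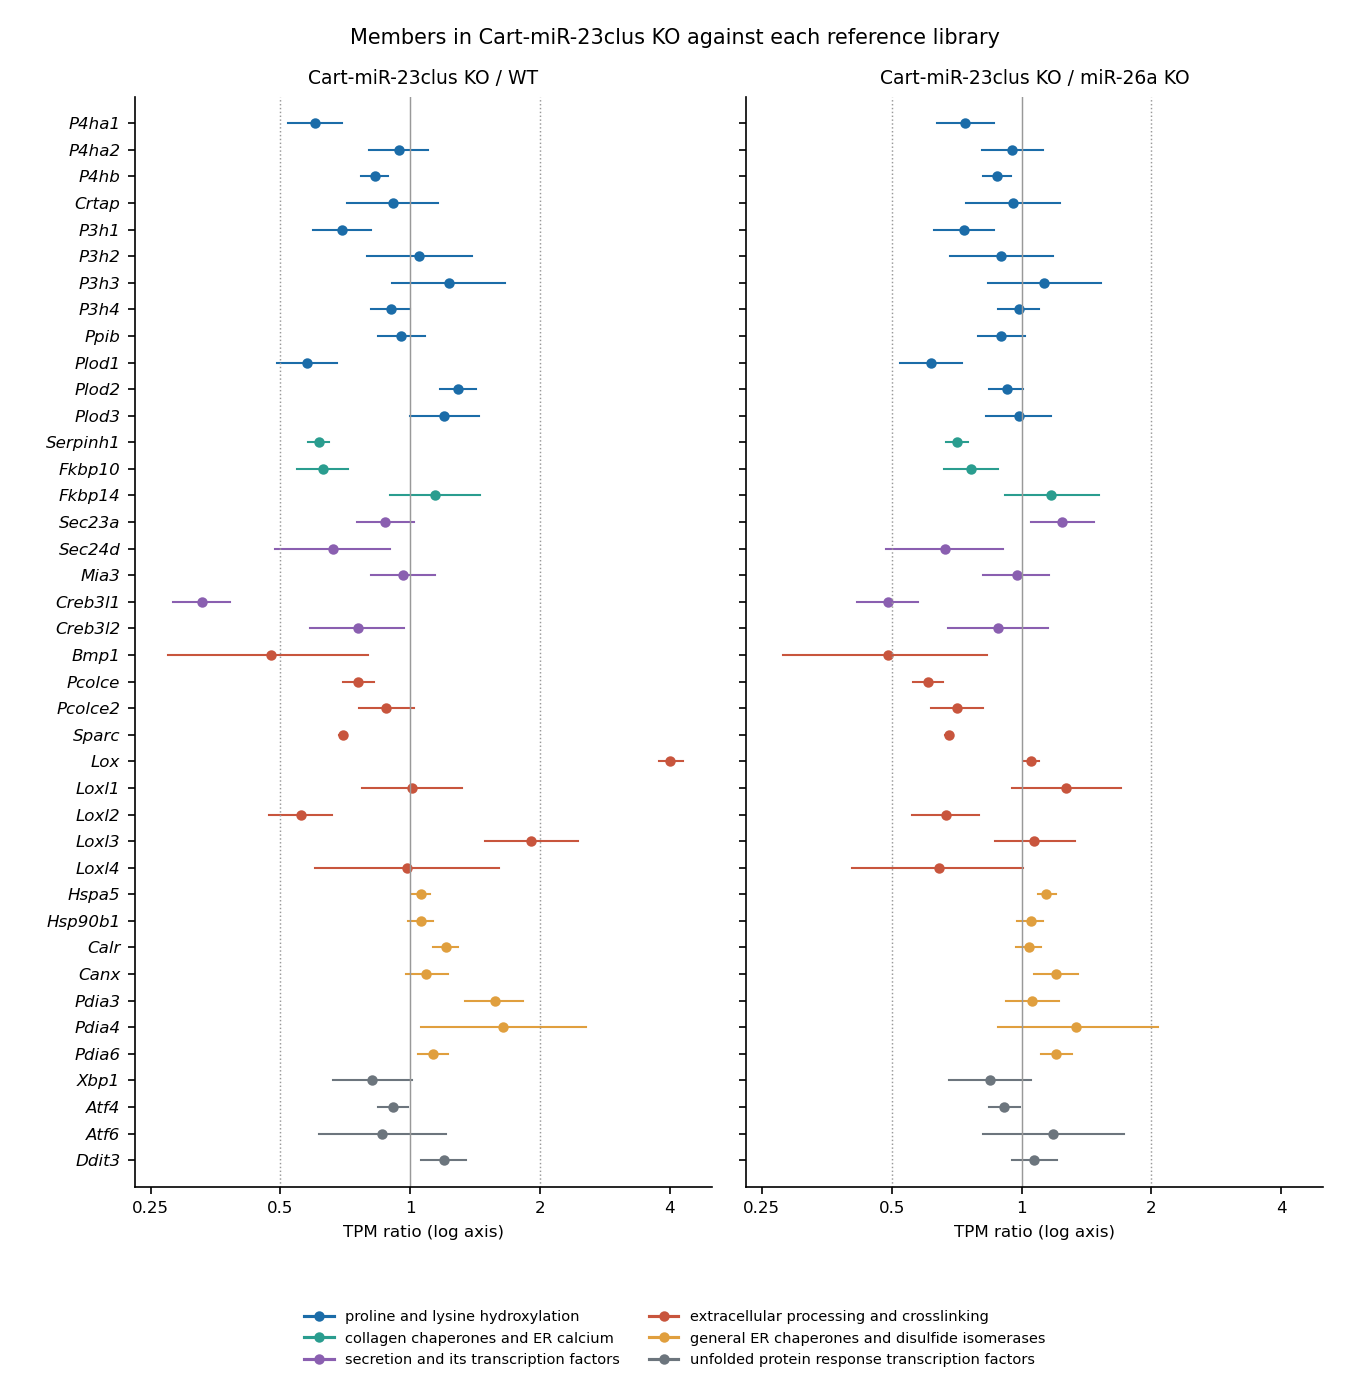
TPM ratio (log axis) of 40 members in Cart-miR-23clus KO against WT (left) and against miR-26a KO (right), coloured by role, where lines are exact 95% intervals covering counting error and dotted lines mark 0.5 and 2. Lox stands at 4.01 against WT and at 1.05 against miR-26a KO, and Creb3l1 is lowest against WT at 0.329. All 7 general ER chaperones (yellow) lie right of 1 in both panels, as do 48.5% (left) and 46.2% (right) of all genes.

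The widest difference was in Lox, lysyl oxidase, the enzyme that oxidises lysines of collagen so that crosslinks form. Its level was 244 TPM in WT, 982 in Cart-miR-23clus KO, 931 TPM in miR-26a KO and 750 with the mimic, from 1211, 4416, 4198 and 3620 reads. WT was thus the low library and the other 3 were all more than 3-fold above it. The ratio to WT was 4.01 (interval 3.77 to 4.28) in Cart-miR-23clus KO and 3.81 (3.57 to 4.06) in miR-26a KO, and the mimic library stood at 0.806 (0.77 to 0.843) of miR-26a KO. Between the knockouts the ratio of Lox was 1.05 (1.01 to 1.1). Several lists also set WT apart from the other 3 libraries: proliferation genes summed to 160 TPM in WT against 285, 303 and 293, osteoblast markers to 13200 against 3930, 6910 and 7810, and chondrocyte markers to 17800 against 12100, 12700 and 12600. Fibroblast and synovial markers summed to 2260 TPM in WT against 1740, 2820 and 2660. Loxl3, another lysyl oxidase, was likewise lowest in WT, but its highest library was the mimic, with 215 TPM in WT, 411 in Cart-miR-23clus KO, 382 TPM in miR-26a KO and 415 with the mimic. Its ratio to WT was 1.91 (1.49 to 2.45) and 1.77 (1.38 to 2.29), just short of 2-fold. The end of Loxl3 overlaps Htra2 on the opposite strand (59, 45, 33 and 50 reads in the same order of libraries), and whether counting used strand is not given in the sources used here, so Loxl3 is uncertain.

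In Cart-miR-23clus KO against WT, the intervals of the other lysyl oxidases included 1 or lay below it. Loxl2 had 75.6 TPM in WT, 42.2 in Cart-miR-23clus KO, 63.3 TPM in miR-26a KO and 58.9 with the mimic, a ratio of 0.558 (0.471 to 0.66) in Cart-miR-23clus KO. Loxl1 was at 27.7 to 37.5 TPM, and its Cart-miR-23clus KO to WT ratio was 1.01 (0.772 to 1.32). Loxl4 was scarce, with 9.73, 9.59, 14.9 and 18.9 TPM in the order WT, Cart-miR-23clus KO, miR-26a KO, mimic. Its ratio to WT was 0.985 (0.602 to 1.61) in Cart-miR-23clus KO and 1.53 (0.991 to 2.39) in miR-26a KO, and the mimic library, with 72 reads against 38 in WT, was its highest.

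Of the 9 extracellular genes, lysyl oxidases included, 3 were higher and 6 lower in Cart-miR-23clus KO against WT, beside 51.5% of all genes lower. The interval lay above 1 for 2 (Lox and Loxl3) and below 1 for 4, beside 11.8% and 12.3% of all genes. Bmp1, the procollagen C-proteinase that also activates prolysyl oxidase, had 11.2 TPM in WT, 5.34 in Cart-miR-23clus KO, 10.9 TPM in miR-26a KO and 14.3 with the mimic. The ratio to WT was 0.475 (0.274 to 0.797) and rested on 22 reads against 51. Pcolce, which enhances that cleavage, had 522, 395, 651 and 675 TPM in the same order, a ratio of 0.758 (0.697 to 0.823) in Cart-miR-23clus KO and of 1.25 (1.16 to 1.34) in miR-26a KO. Its relative Pcolce2 was 0.88 (0.762 to 1.02) and 1.24 (1.09 to 1.42). The collagen-binding matrix protein gene Sparc, with the most reads of all members, had 12600, 8810, 13000 and 12500 TPM, and its ratio of 0.698 (0.685 to 0.712) was the most precisely counted. Of the 9 extracellular genes, 6 were lowest in Cart-miR-23clus KO, beside 30.1% of 11049 genes. The median log2 ratio of the 9 was -0.18 against WT and -0.56 against miR-26a KO, and 0.31 for miR-26a KO against WT.

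**Figure D2:**
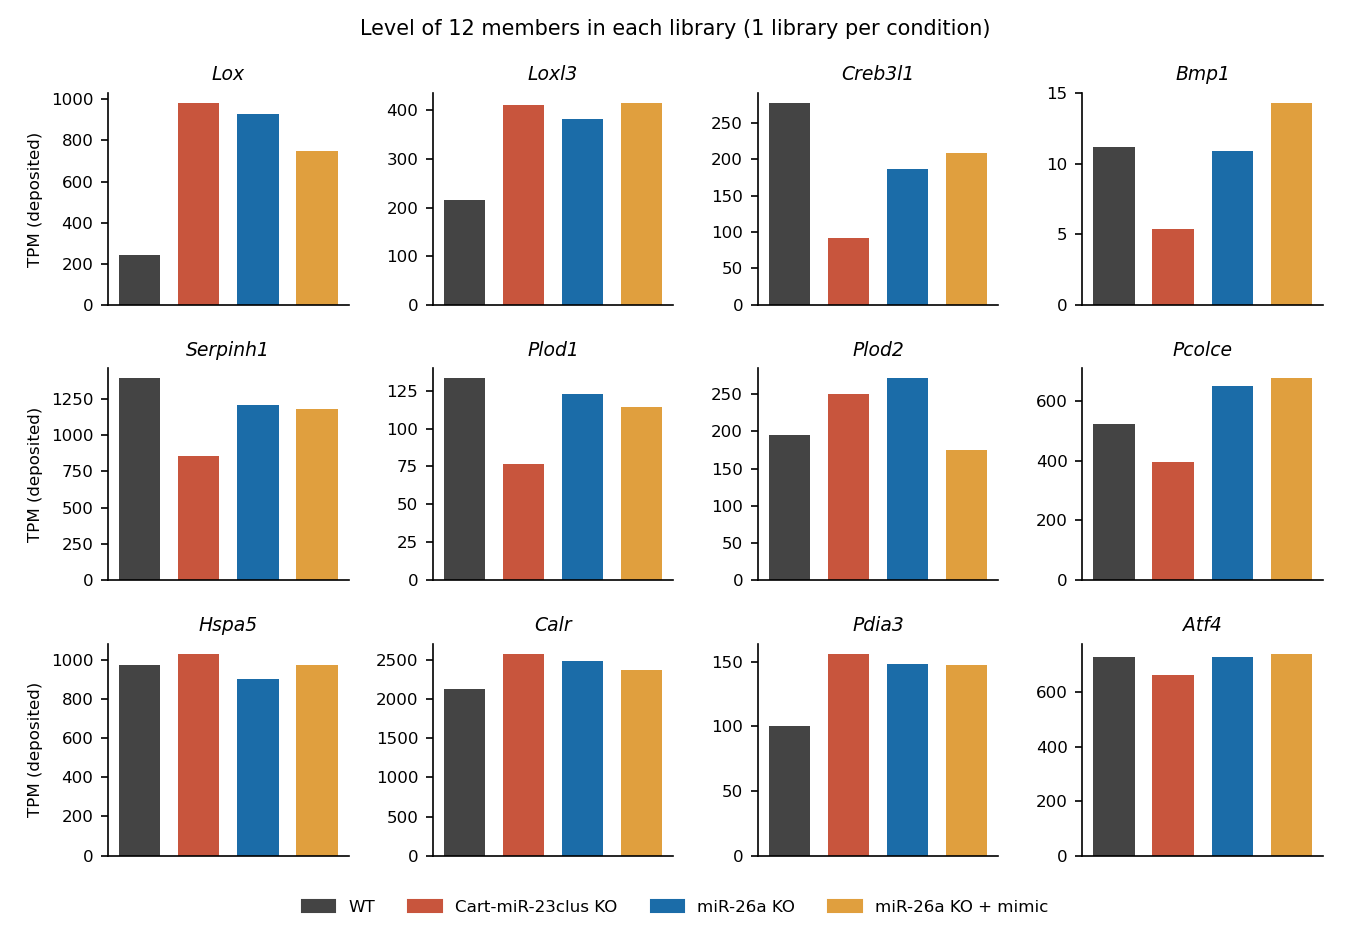
Deposited TPM (vertical axis, from 0, own scale in each panel) of 12 members in the 4 libraries, 1 bar per library with no replicate error. Lox and Loxl3 are lowest in WT, Creb3l1, Bmp1, Serpinh1 and Plod1 are lowest in Cart-miR-23clus KO, Plod2 is lowest with the mimic, and Hspa5 and Atf4 are nearly level.

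The secretion genes held the lowest ratio of all members. Creb3l1 encodes OASIS, an ER membrane transcription factor known to act on type I collagen in osteoblasts. It had 277 TPM in WT, 91.1 in Cart-miR-23clus KO, 186 TPM in miR-26a KO and 209 with the mimic, from 753, 225, 460 and 555 reads. Both knockouts lay below WT, at 0.329 (0.282 to 0.382) in Cart-miR-23clus KO and 0.671 (0.596 to 0.754) in miR-26a KO. Creb3l1 is also an osteoblast-lineage gene, and the osteoblast marker sum had the same order of libraries: 13200 in WT, 3930 in Cart-miR-23clus KO, 6910 TPM in miR-26a KO and 7810 with the mimic. That list includes the type I collagen gene Col1a1, which held 6330 of the 13200 TPM in WT, so the sum is not independent of type I collagen. Whether the osteoblast markers bear on the Creb3l1 values was not tested. Against miR-26a KO, Creb3l1 and Bmp1 both stood at 0.49, just past the threshold. Creb3l2 (BBF2H7), its relative that drives secretory genes in chondrocytes, was at 21.5, 16.2, 18.4 and 15.3 TPM, with a ratio of 0.755 (0.586 to 0.969) in Cart-miR-23clus KO. Sec24d, a cargo receptor of the COPII coat, had 28.9, 19.2, 28.8 and 31.7 TPM and a ratio of 0.662 (0.486 to 0.897). Its partner Sec23a was at 92.5, 80.8, 65 and 73.9 TPM, 0.874 (0.751 to 1.02) in Cart-miR-23clus KO and 0.703 (0.598 to 0.825) in miR-26a KO. Mia3 (TANGO1), which loads procollagen into COPII carriers, was at 89.5, 86.1, 88.3 and 78.4 TPM. All 5 were lower in Cart-miR-23clus KO than in WT, beside 51.5% of all genes, with a median log2 ratio of -0.40 beside -0.02. Of 12 other COPII and export genes, 1 was higher and 11 lower, with a median of -0.35. Their intervals lay below 1 for 4 and above 1 for 0, where 12.3% and 11.8% of all genes did. Sec13, a coat subunit, was lowest at 0.582 (0.479 to 0.704), and Sec23b was highest at 1.44 (0.962 to 2.16).

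Among the collagen chaperones, Serpinh1 encodes Hsp47, which binds the procollagen triple helix and is required for its exit. Its level was 1390 TPM in WT, 855 in Cart-miR-23clus KO, 1210 TPM in miR-26a KO and 1180 with the mimic. The ratio was 0.613 (0.578 to 0.649) in Cart-miR-23clus KO and 0.864 (0.821 to 0.91) in miR-26a KO. Fkbp10 (FKBP65), a prolyl isomerase that works with Hsp47 and lysyl hydroxylation, had 220, 138, 180 and 191 TPM, a ratio of 0.627 (0.547 to 0.717). Fkbp14, a related isomerase, went the other way in Cart-miR-23clus KO, with 49.4, 56.3, 48 and 59.4 TPM and a ratio of 1.14 whose interval (0.897 to 1.45) included 1.

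The hydroxylation genes did not move as 1 group. In Cart-miR-23clus KO against WT, 4 were higher and 8 lower, the interval was above 1 for 2 and below 1 for 4, and the median log2 ratio was -0.11. Over all genes 48.5% were higher and 51.5% lower, the interval was above 1 for 11.8% and below 1 for 12.3%, and the median was -0.02. Plod1, a lysyl hydroxylase of the helix, had 133 TPM in WT, 76.4 in Cart-miR-23clus KO, 123 TPM in miR-26a KO and 114 with the mimic, a ratio of 0.576 (0.49 to 0.676). P4ha1, a catalytic subunit of prolyl 4-hydroxylase, had 127, 76.6, 103 and 84.5 TPM, a ratio of 0.602 (0.52 to 0.695). P3h1, the prolyl 3-hydroxylase, had 126, 87.9, 120 and 127 TPM, a ratio of 0.696 (0.594 to 0.813), while its complex partners Crtap (0.911, 0.713 to 1.16) and Ppib (0.951, 0.84 to 1.08) had intervals that included 1. P4hb, protein disulfide isomerase and the other subunit of prolyl 4-hydroxylase, had 564, 466, 531 and 539 TPM and a ratio of 0.827 (0.768 to 0.89). The second catalytic subunit P4ha2 had 551, 517, 544 and 648 TPM, a ratio of 0.94 (0.802 to 1.1). P3h4, which joins a lysyl hydroxylase complex, had 352, 317, 322 and 326 TPM. P3h2, the prolyl 3-hydroxylase known for type IV collagen, ran from 31.5 to 36.8 TPM, and P3h3, its relative in the lysyl hydroxylase complex, from 75.9 to 115.

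The other lysyl hydroxylases were higher than WT in both knockouts, and Plod2 was below WT with the mimic. Plod2, the telopeptide lysyl hydroxylase that sets the type of crosslink, had 195 TPM in WT, 250 in Cart-miR-23clus KO, 271 TPM in miR-26a KO and 175 with the mimic. The ratio to WT was 1.29 (1.17 to 1.42) in Cart-miR-23clus KO and 1.39 (1.26 to 1.54) in miR-26a KO. Plod3, which also has glycosyltransferase activity, had 69.2, 83.2, 84.6 and 87.1 TPM and ratios of 1.2 and 1.22.

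Procollagen transcripts themselves differed between libraries. Col1a1 had 6330 TPM in WT and 1310 in Cart-miR-23clus KO (0.207, 0.202 to 0.212), and Col6a1 was the highest of the chains at 1.61 (1.39 to 1.87). Over 16 procollagen chains 4 were below 0.5 and 0 above 2, where 4.38% and 4.73% of all genes were. The median log2 ratio of the chains was -0.48, beside -0.02 over all genes. Reads of these 16 chains numbered 112245 in WT, 51665 in Cart-miR-23clus KO, 69712 reads in miR-26a KO and 77139 with the mimic. Per 1000 of those reads, the 12 hydroxylation genes had 54.5 reads (53.1 to 55.9) in WT, 95.6 (92.8 to 98.5) in Cart-miR-23clus KO, 80.9 reads (78.7 to 83.1) in miR-26a KO and 74 (72.1 to 76.1) with the mimic. Serpinh1 had 29.5 (28.5 to 30.6), 35.7 (34.1 to 37.4), 37.4 (36 to 38.9) and 35.6 (34.2 to 36.9) in that order. The hydroxylation genes together held less TPM in Cart-miR-23clus KO (2250) than in WT (2490), but more reads per procollagen read. Their share of reads was 0.408% in WT and 0.372% in Cart-miR-23clus KO, while that of the 16 chains was 7.49% and 3.89%. The rise thus comes from fewer procollagen reads, and any gene with a level share of reads would rise too. The values per procollagen read rest largely on Col1a1 and Col1a2, and Col1a1 is also in the osteoblast list. Without both, the other 14 chains had 54296, 37191, 39867 and 43988 reads in the same order. Per 1000 of these, the hydroxylation genes had 113 reads in WT (110 to 116) and 133 in Cart-miR-23clus KO (129 to 137), so the ratio between the libraries moved from 1.75 to 1.18. Serpinh1 then had 61 reads in WT (58.9 to 63.2) and 49.6 in Cart-miR-23clus KO (47.3 to 52), so its ratio turned from 1.21 to 0.812. Of 7 compared other processing genes, Adamts2, a procollagen N-proteinase, was lowest at 0.224 (0.133 to 0.361) and the transglutaminase Tgm2 was highest at 1.97 (1.34 to 2.93), with a median of -0.41.

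**Figure D3:**
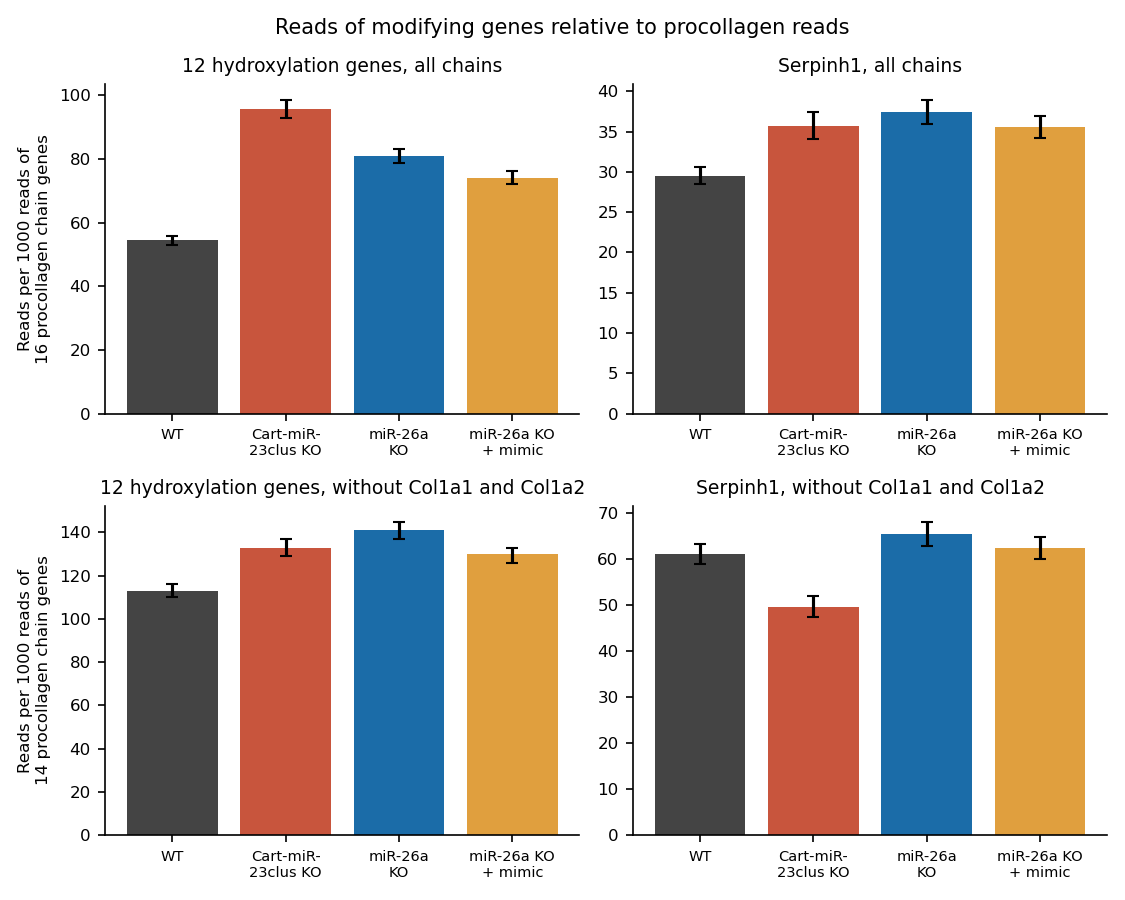
Reads of the 12 hydroxylation genes (left) and of Serpinh1 (right) per 1000 reads of 16 procollagen chain genes (top) and of the 14 left without Col1a1 and Col1a2 (bottom) in each library, with exact 95% intervals covering counting error. With all chains WT is lowest in both panels, at 54.5 and 29.5, whereas without those chains Serpinh1 is lowest in Cart-miR-23clus KO, at 49.6.

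The general ER chaperones lay on the higher side in Cart-miR-23clus KO. All 7 had more TPM in Cart-miR-23clus KO than WT had, at ratios of 1.06 to 1.64, with 5 intervals above 1 and a median log2 ratio of 0.17. Among all genes 48.5% were higher, 11.8% had the interval above 1, and the median was -0.02. Against miR-26a KO the 7 ratios were 1.04 to 1.34, with 3 intervals above 1 and a median of 0.19. There 46.2% of all genes were higher and 8.26% had the interval above 1. Members hold more reads than the typical gene, so the interval shares are not like for like. Both comparisons share the Cart-miR-23clus KO library. In miR-26a KO against WT, 4 were higher and 3 lower, with a median of 0.02, beside 52.6% of all genes higher. Hspa5 (BiP), the main Hsp70 of the ER, had 974 TPM in WT, 1030 in Cart-miR-23clus KO, 904 TPM in miR-26a KO and 974 with the mimic, so its ratio to WT was only 1.06 (1.01 to 1.11). Calr, the lectin chaperone calreticulin, had 2130, 2580, 2490 and 2370 TPM and a ratio of 1.21 (1.13 to 1.29). Pdia6, a disulfide isomerase, had 596, 670, 557 and 547 TPM, a ratio of 1.13 (1.04 to 1.22). Pdia3, the isomerase that partners calreticulin, had 99.9, 156, 148 and 147 TPM, and was 1.57 (1.34 to 1.83) in Cart-miR-23clus KO and 1.48 (1.27 to 1.73) in miR-26a KO. Pdia4, another isomerase, was 14.8, 24.2, 18 and 10.6 TPM, and its ratio of 1.64 (1.06 to 2.55) came from 55 against 37 reads. The intervals of Hsp90b1 (GRP94; 1.06, 0.988 to 1.13) and Canx, the membrane lectin calnexin (1.09, 0.978 to 1.22), included 1.

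Promoters of 5 of the 7 chaperones held a known element of the ER stress response. ER stress genes were among those chosen, so this count is a description and no independent evidence. The ER stress response element, CCAAT, any 9 bases, then CCACG, is known to be bound by ATF6 with NF-Y. It was searched on both strands from 250 bases before to 50 after the start of each gene in RefSeq (GRCm38.p6), and 29 of the 41 members had an entry. It was found in 37 of 27025 promoters (0.137%) and in 5 of the 29 members, all 5 general ER chaperones: Hspa5, Hsp90b1, Calr, Canx and Pdia6. Pdia3 and Pdia4 were searched and had no match, and they had the highest ratios of the group in Cart-miR-23clus KO against WT, 1.57 and 1.64. They are printed in the direction of the gene, with the first and last pentamers of the element in capitals, CCAAT and CCACG or, on the other strand, CGTGG and ATTGG.
Hspa5 (chr2:34772005-34772063, + strand): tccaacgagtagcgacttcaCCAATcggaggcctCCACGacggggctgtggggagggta
Hsp90b1 (chr10:86705513-86705676, - strand): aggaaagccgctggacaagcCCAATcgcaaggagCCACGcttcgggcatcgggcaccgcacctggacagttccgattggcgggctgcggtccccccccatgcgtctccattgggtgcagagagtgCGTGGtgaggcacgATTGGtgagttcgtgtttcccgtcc
Calr (chr8:84847055-84847113, - strand): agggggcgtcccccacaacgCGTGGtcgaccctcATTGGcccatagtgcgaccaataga
Canx (chr11:50325780-50325838, - strand): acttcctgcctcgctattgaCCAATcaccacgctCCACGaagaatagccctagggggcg
Pdia6 (chr12:17266471-17266529, + strand): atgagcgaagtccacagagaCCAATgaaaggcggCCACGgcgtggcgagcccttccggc
Hsp90b1 held the element 2 times, 1 in each orientation. A second element, TGACGTGG, known to be bound by ATF6 and XBP1, was in 193 of all promoters (0.714%) and in 2 members, Sec24d and Sec23a, which are COPII subunits and not chaperones. In Sec24d it lies just before the start.
Sec24d (chr3:123267450-123267495, + strand): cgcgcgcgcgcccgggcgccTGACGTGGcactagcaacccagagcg
A match describes these letters and is not evidence of binding.

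Of the 4 transcription factors of the unfolded protein response, 1 (Ddit3) was higher and 3 were lower in Cart-miR-23clus KO against WT, with 1 interval above 1 and 1 below. The shares over all genes were 48.5% higher and 51.5% lower, with 11.8% of intervals above 1 and 12.3% below. Xbp1 had 97.1 TPM in WT, 79.2 in Cart-miR-23clus KO, 93.8 TPM in miR-26a KO and 88.1 with the mimic, a ratio of 0.816 (0.661 to 1.01). Atf4, which drives the response to halted translation, had 730, 665, 729 and 741 TPM, a ratio of 0.911 (0.84 to 0.988). Atf6, the ER-bound factor, was scarce at 7.46 to 11 TPM and its ratio of 0.862 had an interval of 0.613 to 1.21. Ddit3 (CHOP), a target of ATF4 linked to cell death under ER stress, had 559, 669, 625 and 679 TPM and a ratio of 1.2 (1.06 to 1.35). Its end overlaps Mars on the opposite strand (95 to 112 reads), so Ddit3 too is uncertain. The other 31 genes of the response gave no common direction: 29 were compared, and 12 stood above WT and 17 below it in Cart-miR-23clus KO. They had 3 intervals above 1 and 8 below (11.8% and 12.3% of all genes) and a median log2 ratio of -0.19, beside -0.02 over all genes. Sesn2, a stress sensor, was highest at 2.04 (1.38 to 3.06), and Syvn1, a ubiquitin ligase that clears misfolded ER proteins, was lowest at 0.585 (0.444 to 0.766). Splicing of Xbp1 and cleavage of ATF6, which activate these factors, are not measured by reads from transcript ends.

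With the mimic against miR-26a KO, the compared members with a miR-26 seed match were all lower. Genes with such matches were known to be lower in this library before the members were looked at, so the count is a description and no independent evidence. The match, TACTTGA in the 3′ UTR, was in 6 of the 41 members (14.6%, beside 12.3% of 10344 genes): Plod2, Lox, Creb3l2, Loxl2, Atf6 and Tmem38b. Of the 5 compared, 0 were higher and 5 lower with the mimic, from 0.644 to 0.934, with a median log2 ratio of -0.26. Of the 35 members without a match, 22 were higher and 13 lower, with a median of 0.04. Over all genes compared, 56.8% of 1121 with a match and 49.5% of 7921 without were lower. Plod2 was lowest of the 5, with 941 reads in miR-26a KO and 649 with the mimic, a ratio of 0.644 (0.582 to 0.713). Lox followed at 0.806 (0.77 to 0.843), and the intervals of Creb3l2 (0.829), Loxl2 (0.931) and Atf6 (0.934) included 1. Against WT, miR-26a KO was higher for Plod2 and Lox but lower for the other 3. Matches in Plod2 and Loxl2 are shown in capitals, with neighbouring bases, from the transcripts of the annotation (GRCm38.p6).
Plod2, first (chr9:92607293-92607315, + strand): tgaagttgTACTTGAgaagacaa
Plod2, second (chr9:92608062-92608084, + strand): agcttacgTACTTGAattttata
Loxl2 (chr14:69694547-69694569, + strand): ctgtattaTACTTGAcaaaaaca
Both Plod2 matches lie in its 3′ UTR, 71 and 840 bases after the stop codon. Pdia4, with no match, was lower still with the mimic, at 0.593 (0.348 to 0.992), from 26 reads against 41. P4ha1, also without one, was at 0.817 (0.705 to 0.946).

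**Figure D4:**
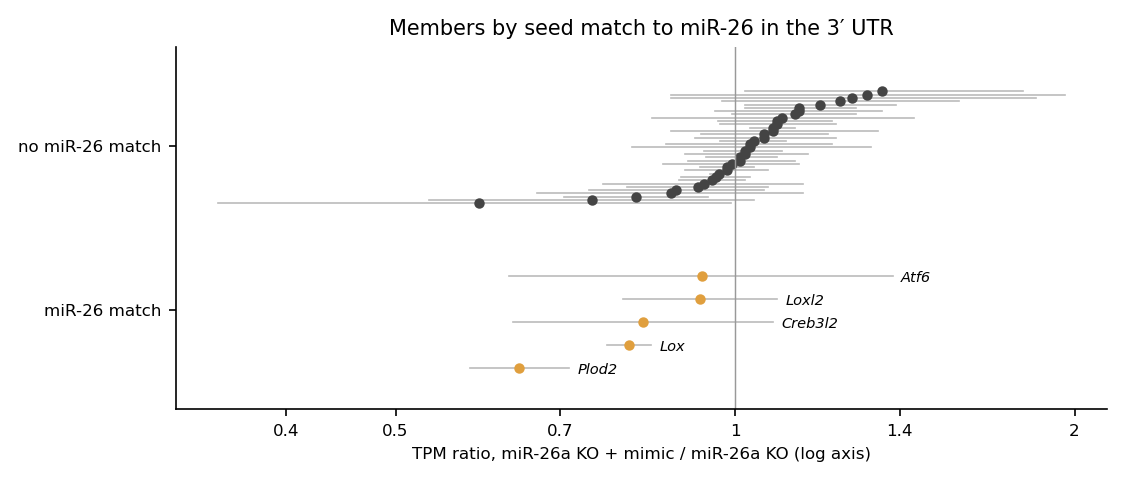
TPM ratio (log axis) of 40 members with the mimic against miR-26a KO, split by a miR-26 seed match in the 3′ UTR, with exact 95% intervals covering counting error. The 5 members with a match all lie below 1, from 0.644 (Plod2) to 0.934 (Atf6), while 22 of 35 without one lie above 1.

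Seed matches of the deleted clusters were also counted. A match to miR-23 (AATGTGA) was in 7 members (17.1%, beside 17.4% of all genes), to miR-27 (ACTGTGA) in 7 (17.1%, beside 18%) and to miR-24 (CTGAGCC) in 9 (22%, beside 19.7%). Of the 17 members with any of them, 8 were higher and 9 lower than in WT, with a median log2 ratio of -0.02. Of the 23 compared without one, 8 were higher and 15 lower, with a median of -0.13. Over all genes compared, 50.2% of 3835 with any of these matches and 47.3% of 5276 without were higher. The difference between members with and without a match was not tested. Lox was the only member with matches to all 4 seeds, with 2 to miR-24. Creb3l1 and Bmp1 had a match to none of the 4.

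The TPM scale affects which members look abundant. The gene length behind each TPM was recovered from reads and TPM, and for 4 members it was far below the longest annotated transcript: 462 bases of 4098 (11.3%) for Loxl3, 605 of 3060 (19.8%) for P4ha2, 880 of 2901 (30.3%) for P3h3 and 721 of 2184 (33%) for Calr. Loxl3 ranked 13 by mean TPM and 29 by mean reads among the 41 members, and P4ha2 ranked 9 and 23. Reads here come from transcript ends, so division by length raises short genes without a matching gain in reads. A gene's own length cancels in its ratio between libraries. The library scale of TPM still sums over length-scaled genes: with reads scaled by library total alone (CPM), 0 members were below 0.5 in Cart-miR-23clus KO against miR-26a KO, where TPM gave 2.

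**Figure D5:**
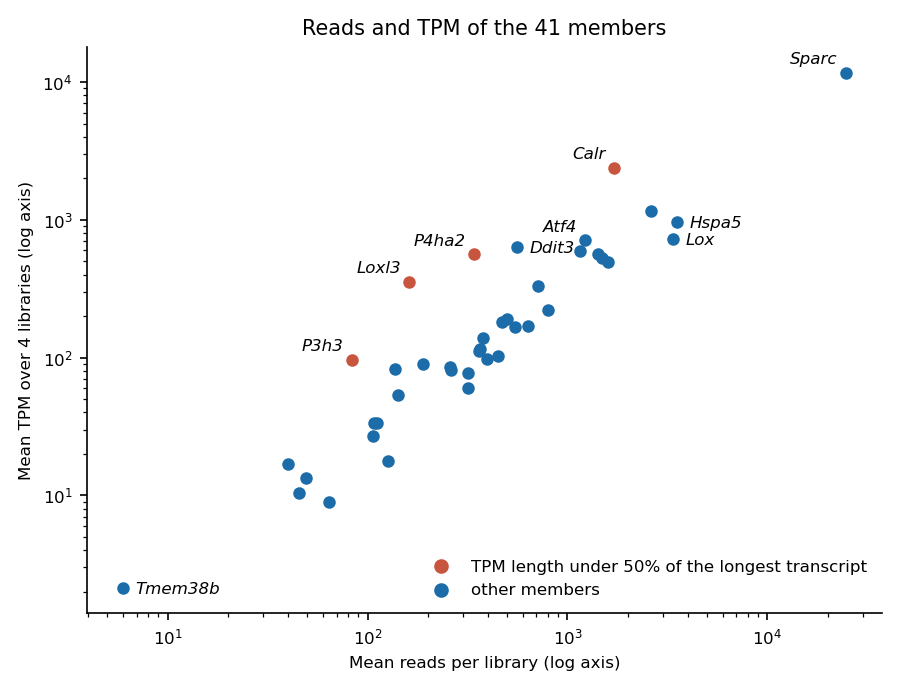
Mean TPM (log axis) against mean reads per library (log axis) of the 41 members. Loxl3, P4ha2, P3h3 and Calr (red), whose TPM length is under 50% of the longest transcript, lie at the upper edge of the points, and Sparc has the most reads, a mean of 24700.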

How the data were processed

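RNA from 4 chondrocyte libraries was made into QuantSeq 3′ mRNA libraries and sequenced on a NextSeq500. Per the labels, reads were mapped to mm10 (GRCm38.p6) without quality filtering, and the aligner, counting tool and annotation are not given in the sources used here. The authors deposited read counts per gene for 3 libraries, whole numbers in the gene rows (entered here as estimated counts since the table's last rows hold alignment percentages), and TPM for all 4. Reads of the mimic library were recovered from the steps of its deposited TPM: 14429 of 14429 values tested were whole within 0.02 reads, and 588 genes were not recovered. Genes that are in the reads table alone held 0.48% to 0.633% of reads.

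Conditions were taken from the labels, with 1 library each, so no test was made. TPM ratios were computed for genes with 20 reads or more in the 2 libraries together, with a library under 3 reads set to 3, and exact Clopper-Pearson 95% intervals were computed on reads (Python 3.11.15, scipy 1.17.1). The intervals cover counting error only, since reads carry no molecular identifiers. Medians used log2(TPM + 0.5). Seed matches used the longest annotated 3′ UTR of at least 50 bases of GENCODE vM21. Alternatives were CPM, edgeR 4.0.16 TMM factors and DESeq2 1.42.0 size factors (R 4.3.3), other read minimums, another fold and other pseudocounts. The ratio script was tested on simulated data. Named genes were all 41 members, with values in every library for those past or nearest 2-fold and the 3 with the highest mean TPM of each role, and the highest and lowest gene of each other list. Further members are named for their role, after their values were seen. The members and lists were chosen with earlier results of these data known.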

Additional observations from a re-analysis of the deposited data

How the results depend on the processing

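Of 86 values recomputed for 14 results, 75 were counts within 1.5 times the reported count or medians inside the 95% order interval of the members' log2 ratios. Over the alternatives the median log2 ratio ran from -0.11 to -0.08 in Cart-miR-23clus KO against WT, from -0.07 to -0.02 for miR-26a KO against WT, from 0.02 to 0.04 with the mimic and from -0.09 to -0.05 in Cart-miR-23clus KO against miR-26a KO. At 1.5-fold, Cart-miR-23clus KO against WT had 4 members above and 8 below (1 and 2 at 2-fold), miR-26a KO against WT had 3 above (1 at 2-fold), the mimic against miR-26a KO had 2 below (0 at 2-fold), and Cart-miR-23clus KO against miR-26a KO had 6 below (2 at 2-fold). Of all genes, 12.5% were above and 12.8% below 1.5-fold in the first comparison, 11.2% above in the second, 6.92% below in the third and 11.4% below in the last. With no read minimum, 2 members were above 2-fold in Cart-miR-23clus KO against WT, since Tmem38b was then included. Against miR-26a KO, 0 members were below 0.5 with CPM, TMM factors or DESeq2 size factors, because Creb3l1 and Bmp1 lie at the threshold. Without Col1a1 and Col1a2, an alternative chosen after seeing the data, the ratio of reads per procollagen read in Cart-miR-23clus KO against WT moved from 1.75 to 1.18 for the hydroxylation genes and turned from 1.21 to 0.812 for Serpinh1. No paired analysis was possible because conditions had 1 library apiece, and none could be left out. Read depth limits Bmp1, Pdia4, Loxl4 and Tmem38b most.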
